A study of Homo sapiens with 12 samples.

Results

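Cadherins and protocadherins, transmembrane proteins that hold cells together through extracellular cadherin repeats, were followed in Hs695T, a human melanoma cell line, on 12 single-colour Affymetrix arrays. Members were the protein-coding genes with a named row whose symbol starts with CDH and a digit, or with PCDH. This gave 31 of the 14599 named genes, each read by 1 row, and 0 of the 31 had values identical to another row. They were 16 protocadherin genes of the beta cluster (PCDHB1 to PCDHB16), 10 delta protocadherins (PCDH1, PCDH7, PCDH8, PCDH9, PCDH10, PCDH11X, PCDH11Y, PCDH17, PCDH18 and PCDH19), 3 other protocadherins (PCDH12, PCDH15 and PCDH20) and the long or atypical cadherins CDH23 and CDH26. RefSeq lists 89 protein-coding genes that match these symbols. The other 58, which include the classical cadherins CDH1 and CDH2 and all genes of the alpha and gamma clusters, had no named row and were not analysed here, so the members are mainly protocadherins.

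All cells were harvested 24 h after treatment, and each group had 3 arrays. Vehicle cells received DMSO. MAPKi cells received 100 nM dabrafenib, a BRAF inhibitor, together with 10 nM trametinib, a MEK inhibitor. HDACi cells received 1 µM entinostat, which inhibits class I histone deacetylases, and the combination was all of these drugs at the same doses. The sample titles speak of biological replicates and the series design of technical ones, so p-values measure only the spread between these arrays. All groups are of 1 cell line.

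Classical cadherins bind catenins and link neighbouring cells to actin, whereas protocadherins lack the catenin-binding tail and mediate weaker, selective recognition between cells, best known from neurons. Delta protocadherins are encoded by separate genes with their own developmental patterns. Beta protocadherins are single-exon genes side by side on chromosome 5, of which a neuron typically uses a few, chosen promoter by promoter. Most promoters of the clustered genes hold a conserved element with a CGCT core to which the insulator protein CTCF binds, and PCDHB1 is known as an exception.

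RefSeq promoter windows (GRCh38.p14, 250 bases before to 50 after each start) were found for 27 members, 14 of them beta genes. The motif GGTGGCGCT, picked after these windows were read and searched on both strands, stood in 13 of the 14 beta windows, all but that of PCDHB1. It stood in 0 of the other 13 members with a window, in 0 of 13 PCDHA and in 0 of 20 PCDHG genes, and in 0.501% of all 35116 windows of this length (0.465% outside the 3 clusters). The closest site of PCDHB1 differed by the substitution C6T, counted from 1 at the motif's 5′ end, and its 9 letters GGTGGTGCT stood in 0.396% of all windows. The following 30-base stretches, all on the plus strand in chromosome order, show the motif in beta genes named below, and for PCDHB1 its closest site. Whether the motif bears on the response of these genes was not tested. Capitals mark the 9 bases.
PCDHB1 (chr5:141051338-141051367): gctagcctttGGTGGTGCTgcagttagagg
PCDHB3 (chr5:141100394-141100423): gcgaacgcatGGTGGCGCTgttgactaaga
PCDHB5 (chr5:141135180-141135209): taggacgcctGGTGGCGCTgcaggctaaga
PCDHB7 (chr5:141172567-141172596): caaaacgcaaGGTGGCGCTgctggctaaaa
PCDHB8 (chr5:141177778-141177807): gaggacccgtGGTGGCGCTgcaggataaga
PCDHB10 (chr5:141192300-141192329): gaggccacacGGTGGCGCTgcaggctaaag
PCDHB12 (chr5:141208644-141208673): ggagacgcgtGGTGGCGCTgcaggataata
PCDHB13 (chr5:141213866-141213895): gaggacgcgtGGTGGCGCTgcaggataaga
PCDHB14 (chr5:141223264-141223293): ggagacacatGGTGGCGCTacaggataaga
PCDHB15 (chr5:141245315-141245344): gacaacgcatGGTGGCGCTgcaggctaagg

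The motif began between 84 bases (PCDHB4) and 2 bases (PCDHB8) upstream of the annotated start. PCDHB5, whose signal was lower with entinostat, and PCDHB7, whose signal was higher, both held it. Beta windows were poor in G and C, at 33.3% to 46.3% against a median of 58.7% over all windows. They held 5 to 12 CG pairs against a median of 14. None of the delta genes that were higher with entinostat and had a window held the motif. For those higher in both entinostat comparisons that had a window, the 100 bases before the start are given 5′ to 3′ with each CG in capitals.
PCDH8 (chr13:52848641-52848740, minus strand): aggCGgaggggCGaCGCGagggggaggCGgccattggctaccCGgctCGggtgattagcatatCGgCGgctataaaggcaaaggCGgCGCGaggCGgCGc
PCDH9 (chr13:67230337-67230436, minus strand): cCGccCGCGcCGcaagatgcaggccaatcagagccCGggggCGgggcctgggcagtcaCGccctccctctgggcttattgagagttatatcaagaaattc
PCDH17 (chr13:57631644-57631743, plus strand): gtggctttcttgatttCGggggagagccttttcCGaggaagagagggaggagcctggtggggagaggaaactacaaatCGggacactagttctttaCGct
PCDH19 (chrX:100410274-100410373, minus strand): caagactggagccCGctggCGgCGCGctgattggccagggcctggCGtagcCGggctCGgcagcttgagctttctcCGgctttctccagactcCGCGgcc

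In their 300-base windows PCDH19 held 26 CG pairs, PCDH8 and PCDH9 20 each, and PCDH17 11, within the range of the beta windows. PCDH18, which rose with entinostat alone, held 10. The 2 windows of PCDH11X, which rose too, held 17 and 2. PCDH7, which did not pass with entinostat alone, held 16, and PCDH1, which fell on the deposited scale, held 6. The windows of the delta genes that rose thus held 2 to 26 CG pairs, and those of PCDH7 and PCDH1 lay within this range. PCDH10, which rose most, had no window. Whether CG pairs bear on the response was not tested. No array measured methylation or binding, so these sequences describe the genes and not a mechanism.

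Values below are log2 of the deposited intensity, differences are log2 differences ± limma's standard error, and a member rose or fell where its limma p, adjusted by Benjamini-Hochberg over all 14599 genes, was under 0.05. In cells given MAPKi most probe sets were dimmer. The median intensity of an array was 50.6 to 57.6 in vehicle, 37.5 to 40.8 with MAPKi, 48.3 to 51.6 with HDACi and 33.3 to 39.9 with the combination. Bright genes shifted most, so the difference after quantile normalization of the arrays stands beside each result as "quantile". The 16 brighter members and the 15 dim ones, whose mean lay below the 40th percentile of genes (5.56), are thus not on an equal footing. Of the melanocyte markers SOX10 lay at percentile 95.97 of all genes, PMEL at 51.8 and MITF at 44.85, while MLANA (14.01), TYR (9.85) and TYRP1 (7.51) were dim. Of 23 markers of melanocytes and other cell types 16 were measured. The endothelial markers KDR and VWF lay at percentiles 80.06 and 25.32. Of the epithelial markers KRT18 lay at 62.89, KRT8 at 54.73, EPCAM at 43.32, KRT14 at 38.48 and KRT5 at 14.15. The leukocyte marker LYZ lay at 26.84 and the fibroblast markers DCN and LUM at 3.23 and 3.25. The part of any other cell type in the results was not tested. In bulk extracts, fewer expressing cells and less RNA per cell cannot be told apart.

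Entinostat alone raised most delta protocadherins. Against vehicle 12 members rose and 8 fell, where 10.4% of all genes rose and 37.2% fell. Among the 10 delta protocadherins 7 rose on both scales (9.95% of all genes did) and only PCDH1 fell, and their median difference was 0.71 (quantile 0.80) against -0.20 over all genes (quantile -0.04). After quantile normalization 14 members rose and 4 fell, against 18.2% and 21.4% of all genes. PCDHB5, PCDHB13, PCDHB15 and CDH26 fell on both scales, where 21.3% of all genes did.

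PCDH10, an adhesion protein that recruits actin regulators and is often silenced by promoter methylation in tumours, rose most. Its log2 intensity was 4.64, 5.21 and 5.31 in the vehicle arrays and 6.58, 6.88 and 6.76 in the HDACi arrays. All HDACi arrays lay above all vehicle arrays, with a mean of 6.74 ± 0.15 against 5.05 ± 0.36 (SD, n = 3). The difference was 1.69 ± 0.15, or 3.23-fold (limma adjusted p = 2.8e-07, quantile 1.70).

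PCDH17, which organises synapses and axon bundles, read 5.54, 4.99 and 4.44 in vehicle and 6.44, 5.68 and 6.16 with HDACi. The vehicle arrays were widely spread, yet the groups did not overlap. Its difference was 1.11 ± 0.23 (limma adjusted p = 0.00085, quantile 1.13). PCDH19, an X-linked gene whose mutations cause an epilepsy of females, read 5.16, 4.78 and 4.65 in vehicle and 5.80, 5.71 and 5.61 with HDACi. Again every HDACi array was higher, and the difference was 0.84 ± 0.13 (limma adjusted p = 4.8e-05, quantile 0.85).

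PCDH9, a delta-1 protocadherin, read 4.33, 4.09 and 3.88 in vehicle and 4.91, 5.09 and 4.75 with HDACi. It was thus dim in both groups but separated, at 0.81 ± 0.14 (limma adjusted p = 0.0002, quantile 0.79). PCDH8, which in neurons promotes the uptake of N-cadherin from synapses, read 5.16, 5.56 and 4.98 in vehicle and 5.88, 6.01 and 6.10 with HDACi. The groups did not overlap, and the difference was 0.76 ± 0.15 (limma adjusted p = 0.00037, quantile 0.80). PCDH18 rose by 0.66 ± 0.10 (quantile 0.88) and is described with MAPKi below.

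The remaining delta members had smaller differences. PCDH11X rose by 0.34 ± 0.10 on a row at percentile 1.12 of all genes, and without vehicle array 3 or HDACi array 2 it did not pass (limma adjusted p = 0.057 and 0.055). PCDH11X and the Y-linked PCDH11Y are nearly identical in sequence, and whether their rows read only their own gene was not tested. PCDH7 did not pass (0.02 ± 0.11, limma adjusted p = 0.88). PCDH1, an adhesion protein of airway epithelium, fell by 0.39 ± 0.13 on the deposited scale but not after quantile normalization (-0.03). After subtraction of array medians it was lower too (-0.29). The deposited-scale call of PCDH1 was lost without HDACi array 1 or without vehicle array 1 or 3 (limma adjusted p = 0.051 to 0.10).

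Outside the delta family PCDH20 rose (0.52 ± 0.19, quantile 0.51), although its arrays overlapped with vehicle. CDH26, a cadherin of epithelia and eosinophils, fell by 0.45 ± 0.11 (quantile -0.34). CDH23, a tip-link protein of hair cells, its partner PCDH15 and the endothelial PCDH12 did not pass, with differences of 0.08, 0.10 and -0.01. Without vehicle array 3 the number of members that rose with entinostat dropped from 12 to 7.

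**Figure D1:**
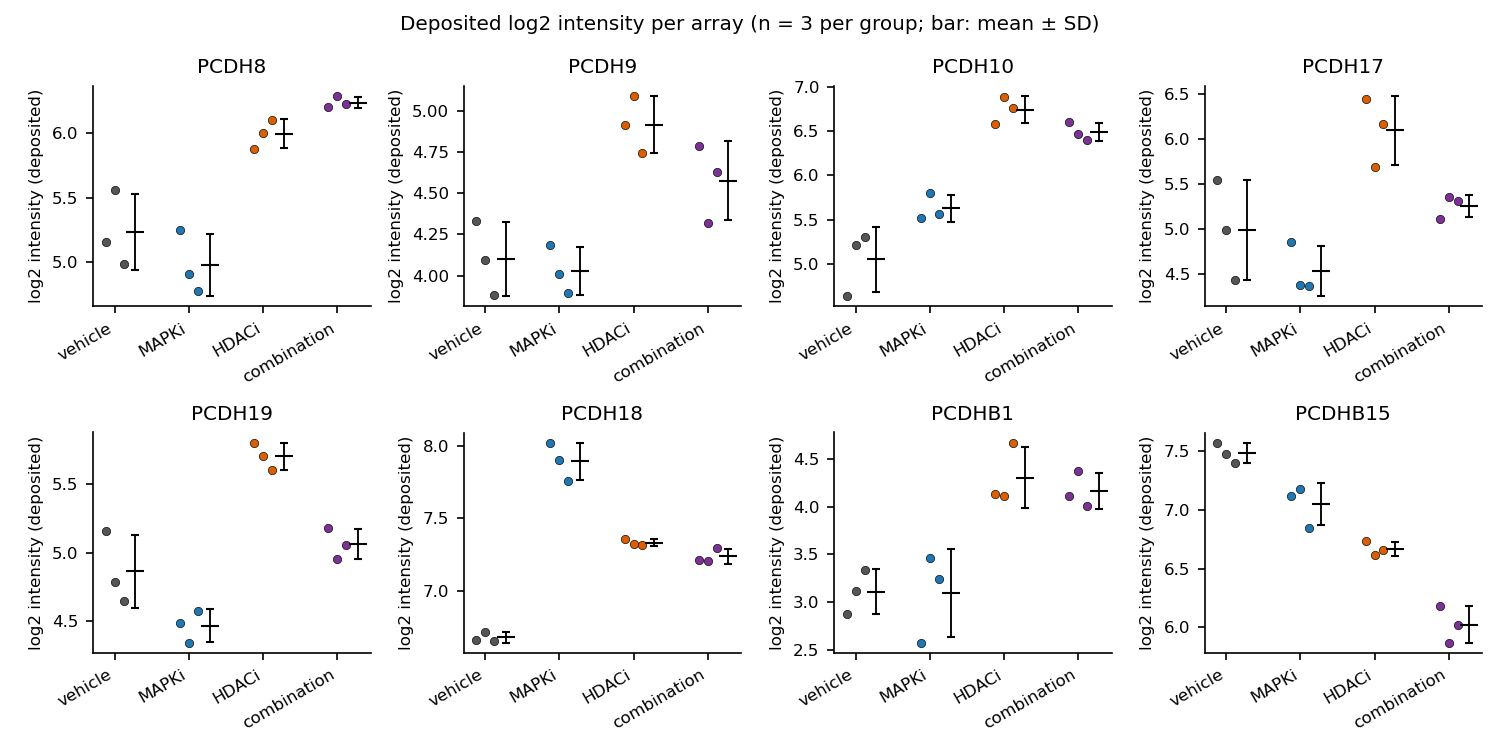
Deposited log2 intensity (vertical axes, each with its own range) of 8 members in the 12 arrays, grouped by treatment; dots are arrays and the bars beside them are mean ± SD of 3 arrays. PCDH10 with HDACi (6.58 to 6.88) lay above vehicle (4.64 to 5.31), PCDH18 was highest with MAPKi (7.75 to 8.02), and PCDHB15 was lowest with the combination (5.87 to 6.18).

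The beta cluster split with entinostat. PCDHB1, PCDHB4, PCDHB6 and PCDHB7 rose, PCDHB5 and PCDHB11 to PCDHB15 fell, and the other 6 did not pass, with a median over the 16 genes of 0.11 (quantile 0.26). In chromosome order (PCDHB1 to PCDHB8, PCDHB16, PCDHB9 to PCDHB15) the 5 genes at the far end all fell, by 0.44 to 0.81. In all, 6 of the 16 beta genes fell, where 37.2% of all genes did. PCDHB11 (-0.48), PCDHB12 (-0.44) and PCDHB14 (-0.53) lay near the medians of all genes of like brightness (-0.44, -0.45 and -0.45). After quantile normalization PCDHB13, PCDHB15 and PCDHB5 remained lower, PCDHB11, PCDHB12 and PCDHB14 did not pass, and PCDHB3 and PCDHB16 were higher too. The PCDHB13 arrays then overlapped with vehicle. After subtraction of array medians all 6 beta genes that fell were still lower (-0.34 to -0.71), as were 4783 of all 14599 genes. PCDHB3 (0.25 ± 0.10) passed on the deposited scale as well without HDACi array 3, MAPKi array 3 or combination array 2 (limma adjusted p = 0.037 to 0.049).

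PCDHB1, the first gene of the cluster, read 2.88, 3.11 and 3.34 in vehicle and 4.13, 4.11 and 4.67 with HDACi. Its row was dim, at percentile 9.97 of all genes, and all HDACi arrays were higher, by 1.19 ± 0.21 or 2.29-fold (limma adjusted p = 0.00015, quantile 1.11). PCDHB15, the last gene, read 7.57, 7.47 and 7.40 in vehicle and 6.73, 6.62 and 6.66 with HDACi. It thus went the other way without overlap, by -0.81 ± 0.11 (limma adjusted p = 2.2e-05, quantile -0.46). PCDHB5, whose row had the highest mean signal of all members, read 10.02, 9.93 and 9.98 in vehicle and 9.31, 9.31 and 9.43 with HDACi. Its signal was lower in every HDACi array, by -0.62 ± 0.10 (limma adjusted p = 4.8e-05, quantile -0.30).

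The rises of PCDHB6 (0.39 ± 0.12, quantile 0.52) and PCDHB7 (0.42 ± 0.16, quantile 0.55) were small and their arrays overlapped with vehicle. Without vehicle array 3 neither passed (limma adjusted p = 0.068 and 0.20). PCDHB6 was also lost without vehicle array 1 or HDACi array 3, and PCDHB7 without vehicle array 2 or HDACi array 2 or 3 (limma adjusted p = 0.05 to 0.10).

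Entinostat added to MAPKi gave higher signal of 5 of the 10 delta protocadherins and lower signal of the genes at the end of the beta cluster. Of the other delta members, PCDH1 (-0.59 ± 0.13, quantile -0.14) and PCDH18 (-0.65 ± 0.10, quantile -0.18) fell on the deposited scale but not after quantile normalization. The remaining 3 did not pass. After subtraction of array medians PCDH1 and PCDH18 were lower too (-0.46 and -0.52), as were 4944 of all 14599 genes. In the combination against MAPKi 6 members rose, where 8.68% of all genes did, and 11 fell, where 40.6% did. The risers were PCDH8, PCDHB1, PCDH10, PCDH17, PCDH19 and PCDH9, and all 6 also rose after quantile normalization (8.66% of all genes rose on both scales). On both scales 6 members fell (24.0% of all genes did): PCDHB5 and the 5 genes at the end of the cluster, PCDHB11 to PCDHB15. The median of all members was -0.17 (quantile 0.01), against -0.23 (quantile -0.04) over all genes. After quantile normalization 19.6% of all genes rose and 24.0% fell.

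PCDH8 read 5.25, 4.91 and 4.78 with MAPKi and 6.20, 6.29 and 6.23 with the combination. The combination arrays were closely grouped and all higher, by 1.26 ± 0.15 or 2.40-fold (limma adjusted p = 3e-06, quantile 1.66). PCDH10 read 5.52, 5.80 and 5.56 with MAPKi and 6.60, 6.47 and 6.40 with the combination. It was higher in every combination array, by 0.86 ± 0.15 (limma adjusted p = 0.00019, quantile 1.28).

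PCDHB1 rose by 1.07 ± 0.21 from MAPKi arrays of 2.58, 3.46 and 3.25 to combination arrays of 4.11, 4.38 and 4.01. Although its MAPKi arrays were the most scattered of any group shown here for it, none reached the combination (limma adjusted p = 0.00036, quantile 1.23). PCDH19 rose by 0.60 ± 0.13 (quantile 0.76) and PCDH9 by 0.55 ± 0.14 (quantile 0.70). PCDH17 rose by 0.72 ± 0.23 (quantile 0.92) from 4.86, 4.38 and 4.36 to 5.12, 5.35 and 5.31. Its call rested on single arrays, since it did not pass without MAPKi array 2 or 3 (limma adjusted p = 0.058 and 0.07).

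Among the beta genes that fell, PCDHB15 read 7.12, 7.18 and 6.85 with MAPKi and 6.18, 5.87 and 6.02 with the combination. The difference was -1.02 ± 0.11 with no overlap (limma adjusted p = 2.2e-06, quantile -0.71). PCDHB13, with MAPKi arrays of 6.93, 6.97 and 7.01 and combination arrays of 5.95, 5.97 and 5.75, fell by 1.08 ± 0.14 (limma adjusted p = 7.1e-06, quantile -0.79). The MAPKi arrays of PCDHB13 lay close together and far above those of the combination. PCDHB5 fell by 1.02 ± 0.10 (quantile -0.61), PCDHB11 by 1.00 ± 0.12 (quantile -0.55), PCDHB12 by 0.99 ± 0.12 (quantile -0.52) and PCDHB14 by 0.86 ± 0.10 (quantile -0.38).

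Apart from PCDHB1, which rose, and PCDHB5, the genes before PCDHB11 in the cluster had smaller differences. PCDHB2, PCDHB3, PCDHB4, PCDHB7, PCDHB8 and PCDHB9 did not pass (-0.43 to -0.01). PCDHB8, the lowest of them, did pass without vehicle array 3, MAPKi array 2 or 3, HDACi array 2 or 3, or combination array 1 (limma adjusted p = 0.021 to 0.049). PCDHB6, PCDHB10 and PCDHB16 fell on the deposited scale but did not pass after quantile normalization (-0.28, -0.10 and -0.12). After subtraction of array medians PCDHB6 and PCDHB10 were lower too (-0.45 each), and PCDHB16 did not pass (-0.17). PCDHB10, which directly precedes PCDHB11, had a row as bright as that of PCDHB14 (8.16 and 8.19 on average) and fell by 0.58 ± 0.12. The pseudogene rows of the cluster were no members, and 2 of the 3 measured fell alike on both scales, PCDHB18P by 0.94 ± 0.15 (quantile -0.46) and PCDHB19P by 0.99 ± 0.11 (quantile -0.78).

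Over the 16 beta genes, Spearman's rho between position in the cluster and difference was -0.71 for the combination against MAPKi (quantile -0.73) and -0.72 for HDACi against vehicle (quantile -0.74). Without PCDHB1 it was -0.65 (quantile -0.68) and -0.66 (quantile -0.69). These values describe 16 related genes read on the same arrays. Brightness ran with the difference as well: rho between mean log2 intensity and difference was -0.71 (quantile -0.59) and -0.72 (quantile -0.63), and its part in the pattern was not tested. For genes of like brightness to PCDHB11 to PCDHB15 and PCDHB5, the median of all genes in the combination against MAPKi was -0.34 to -0.53, against -0.86 to -1.08 for these 6. For HDACi against vehicle it was -0.34 to -0.45, against -0.44 to -0.81, with PCDHB11, PCDHB12 and PCDHB14 close to it. Beta protocadherins are close paralogs, and whether each probe set reads only its own gene was not tested.

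**Figure D2:**
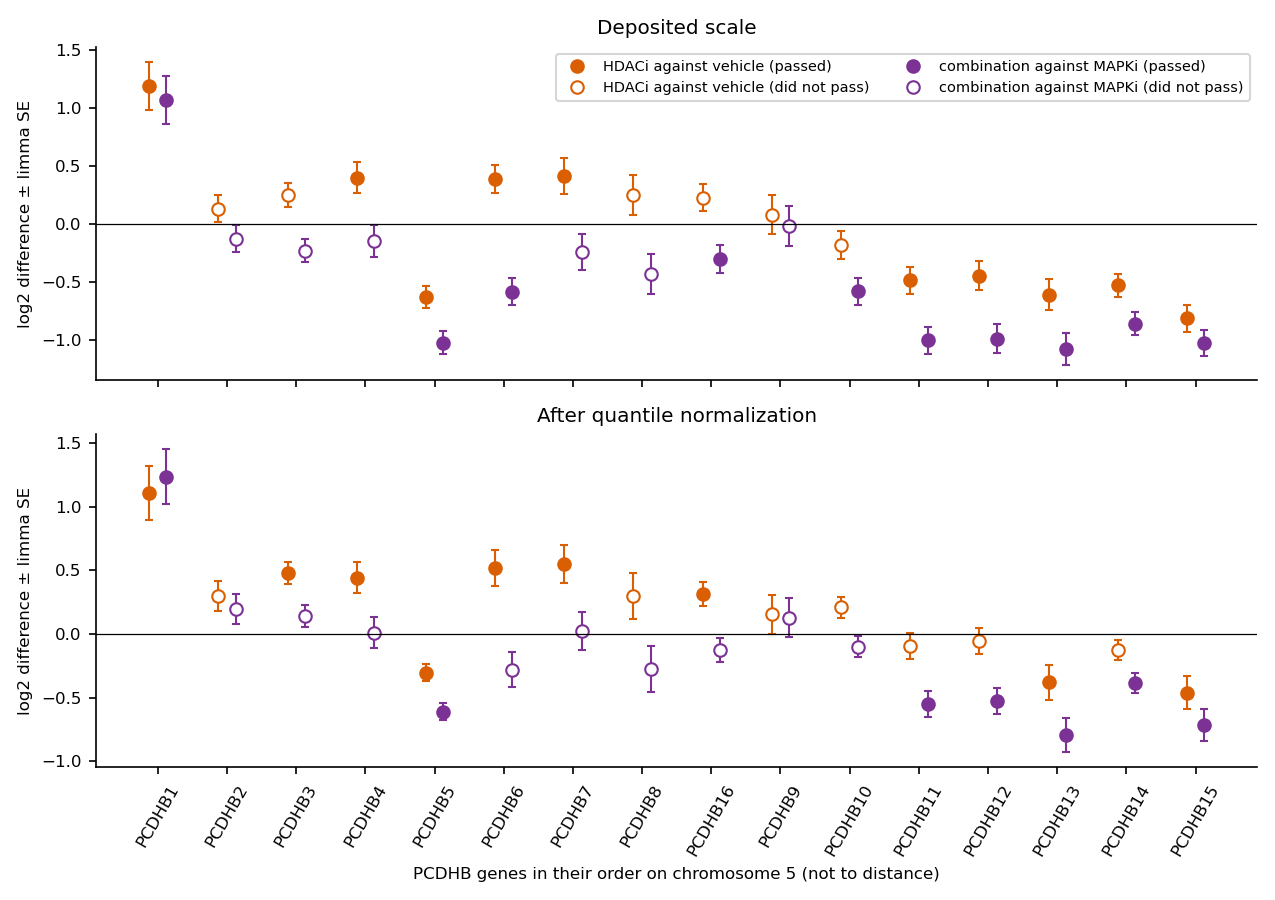
Log2 difference ± limma standard error (vertical axis) of the 16 beta protocadherin genes in chromosome order (horizontal axis), for HDACi against vehicle and the combination against MAPKi, on the deposited scale (upper panel) and after quantile normalization (lower panel); filled points passed. PCDHB1 stands above 1 in all 4 series, and PCDHB5 and PCDHB11 to PCDHB15 lie lowest in the combination against MAPKi (-1.08 to -0.86 deposited, -0.79 to -0.38 quantile).

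MAPKi alone raised PCDH18 most. Against vehicle 4 members rose and 8 fell, where 2.97% of all genes rose and 66.2% fell. The risers were PCDH18, PCDH10, PCDHB8 and PCDHB6, and all 4 were higher on both scales, where 2.54% of all genes were. The median of the members was -0.17 against -0.48 over all genes. After quantile normalization 14 members were higher and 1 was lower, against 14.2% and 14.7% of all genes, and 11 of the 14 were beta genes (median of the 16 beta genes 0.46, deposited -0.10). A negative difference was found for 10 of the 16 beta genes on the deposited scale and for 0 of 16 after quantile normalization. Of all 14599 genes, 12926 had a negative difference on the deposited scale and 7389 after quantile normalization. The direction of the beta genes thus depended on the scaling.

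PCDH18, a delta protocadherin that binds the adaptor DAB1, rose most. It read 6.66, 6.72 and 6.65 in vehicle and 8.02, 7.90 and 7.75 with MAPKi. The groups lay far apart, with a difference of 1.21 ± 0.10 or 2.32-fold (limma adjusted p = 3.2e-08, quantile 1.82). PCDH10 rose by 0.58 ± 0.15 (limma adjusted p = 0.0035, quantile 0.93), with every MAPKi array above every vehicle array. PCDHB6 rose by 0.47 ± 0.12 (quantile 0.94). PCDHB8 rose by 0.55 ± 0.17 (quantile 0.92) and did not pass without MAPKi array 1 (limma adjusted p = 0.06).

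PCDH12, also called VE-cadherin-2 and known from endothelium and placenta, was the only member lower with MAPKi on both scales (14.6% of all genes were), but it did not pass after subtraction of array medians (-0.33, limma adjusted p = 0.11). It read 5.001, 5.334 and 4.796 in vehicle, 4.235, 4.239 and 4.346 with MAPKi, 5.026, 5.015 and 5.064 with HDACi and 3.821, 4.666 and 4.110 with the combination. On the deposited scale signal was lower in both groups that contained MAPKi, without overlap, and HDACi alone lay among the vehicle arrays. The differences from vehicle were -0.77 ± 0.17 with MAPKi (limma adjusted p = 0.00097, quantile -0.48) and -0.84 ± 0.17 with the combination (limma adjusted p = 0.00032, quantile -0.47). After quantile normalization the combination arrays overlapped with vehicle, and after median subtraction the combination did not pass either (-0.28, limma adjusted p = 0.15). The 2 measured endothelial markers moved as follows: KDR went from 8.60 in vehicle to 5.68 with MAPKi and VWF from 5.08 to 4.70. Their part in the PCDH12 result was not tested.

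The 7 other falls with MAPKi did not pass after quantile normalization in the same direction. They were PCDHB10, PCDHB14 and PCDHB15 (-0.34 to -0.43), PCDH19 (-0.40), PCDH7 (-0.28), CDH23 (-0.31) and CDH26 (-0.51 ± 0.11, quantile -0.07). PCDHB10 and PCDHB14 were instead called higher after it (0.47 and 0.45). PCDH19 did not pass without vehicle array 1 or MAPKi array 2 (limma adjusted p = 0.08 and 0.055). The PCDHB10 call was lost without vehicle array 1 or MAPKi array 3 (limma adjusted p = 0.071 and 0.12), and that of PCDH7 without vehicle array 1 or 2 or MAPKi array 1 or 3 (limma adjusted p = 0.051 to 0.12). In all, 4 members fell without vehicle array 1 and 5 without MAPKi array 3.

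**Figure D3:**
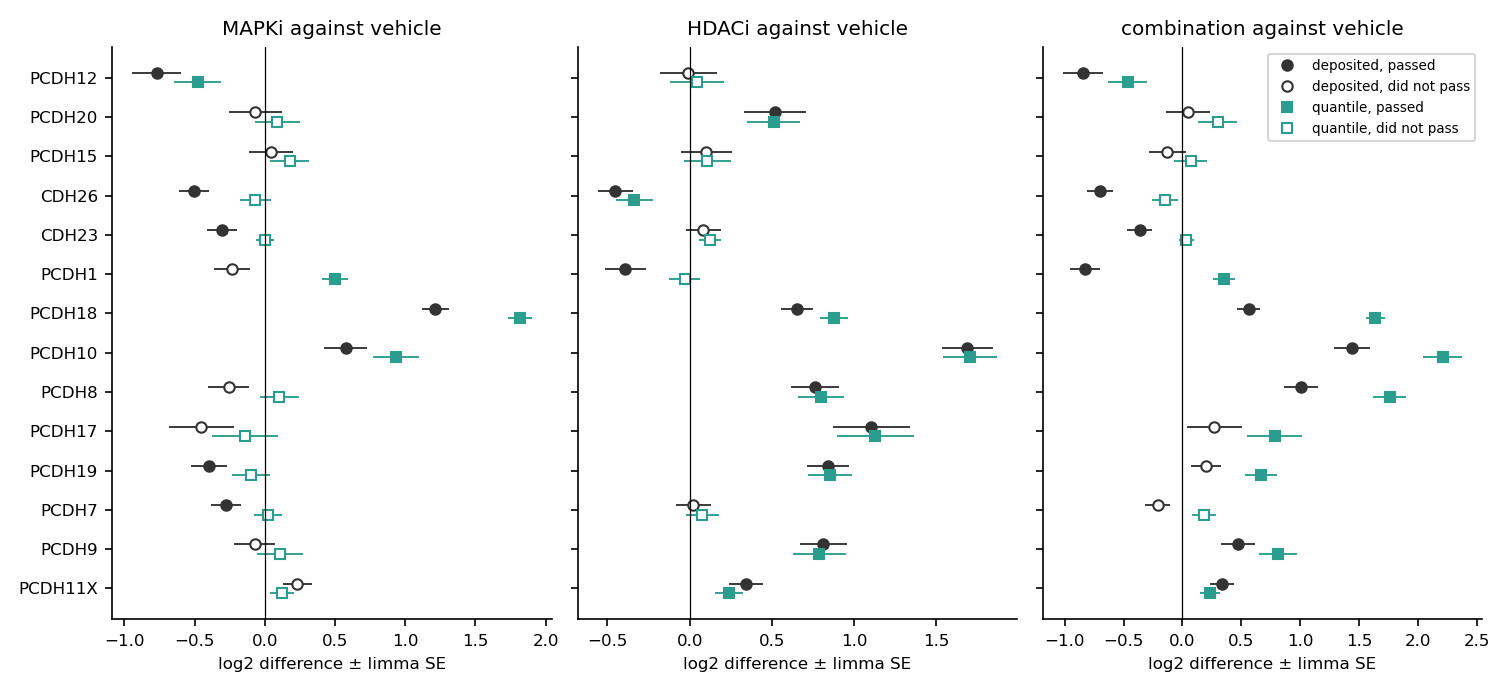
Log2 difference from vehicle ± limma standard error (horizontal axes) of 14 members outside the beta cluster (rows), for MAPKi, HDACi and the combination, on the deposited scale (circles) and after quantile normalization (squares); filled symbols passed. PCDH18 is highest with MAPKi (1.21, quantile 1.82) and PCDH10 with HDACi (1.69, quantile 1.70), while PCDH1 with the combination lies on opposite sides of 0 on the 2 scales (-0.83, quantile 0.35).

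With all drugs together, 6 members rose against vehicle, where 4.38% of all genes did, and 14 fell, where 74.3% did. PCDH10 (1.44 ± 0.15, quantile 2.21), PCDHB1 (1.06 ± 0.21, quantile 1.25), PCDH8 (1.01 ± 0.15, quantile 1.76), PCDH18 (0.56 ± 0.10, quantile 1.64), PCDH9 (0.48 ± 0.14, quantile 0.81) and PCDH11X (0.34 ± 0.10, quantile 0.23) were higher on both scales, where 3.99% of all genes were. PCDH12 and PCDHB15 were the 2 members lower on both, where 25.5% were, and PCDHB15 fell by 1.46 ± 0.11 (quantile -0.44). After quantile normalization 18 members were higher and 2 lower, against 21.0% and 25.6% of all genes. PCDH17 (0.27 ± 0.23, quantile 0.78) and PCDH19 (0.20 ± 0.13, quantile 0.66) did not pass on the deposited scale with all arrays. Both were higher after quantile normalization and after subtraction of array medians (0.84 and 0.77). On the deposited scale both passed without vehicle array 1 (limma adjusted p = 0.035 and 0.015). Of the 14 members that fell, quantile normalization turned 6 into rises: PCDHB2, PCDHB3, PCDHB10, PCDHB12, PCDHB16 and PCDH1. With array medians subtracted instead, 6 members were lower, as were 6341 of all 14599 genes. They were PCDHB15 (-0.89), PCDHB14 (-0.67), PCDHB5 (-0.65), PCDHB11 (-0.55), PCDHB10 (-0.35) and PCDH1 (-0.26). PCDHB10 and PCDH1 thus passed in opposite directions on these 2 scales. PCDHB16 was higher with medians subtracted too (0.29), and PCDHB2, PCDHB3 and PCDHB12 did not pass. The members' median was -0.28 (quantile 0.35) and that of all genes -0.72 (quantile -0.04).

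The general shift was larger for brighter genes. All-gene medians in the combination against vehicle went from -0.04 in the dimmest of 10 bins to -1.32 in the ninth. PCDHB5 (-1.22), PCDHB14 (-1.23) and PCDHB11 (-1.12) lay near the medians of their bins (-1.19, -1.32 and -1.27). PCDH18, with a bin median of -1.27, and PCDH10 and PCDH8, with -0.72, lay well above.

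**Figure D4:**
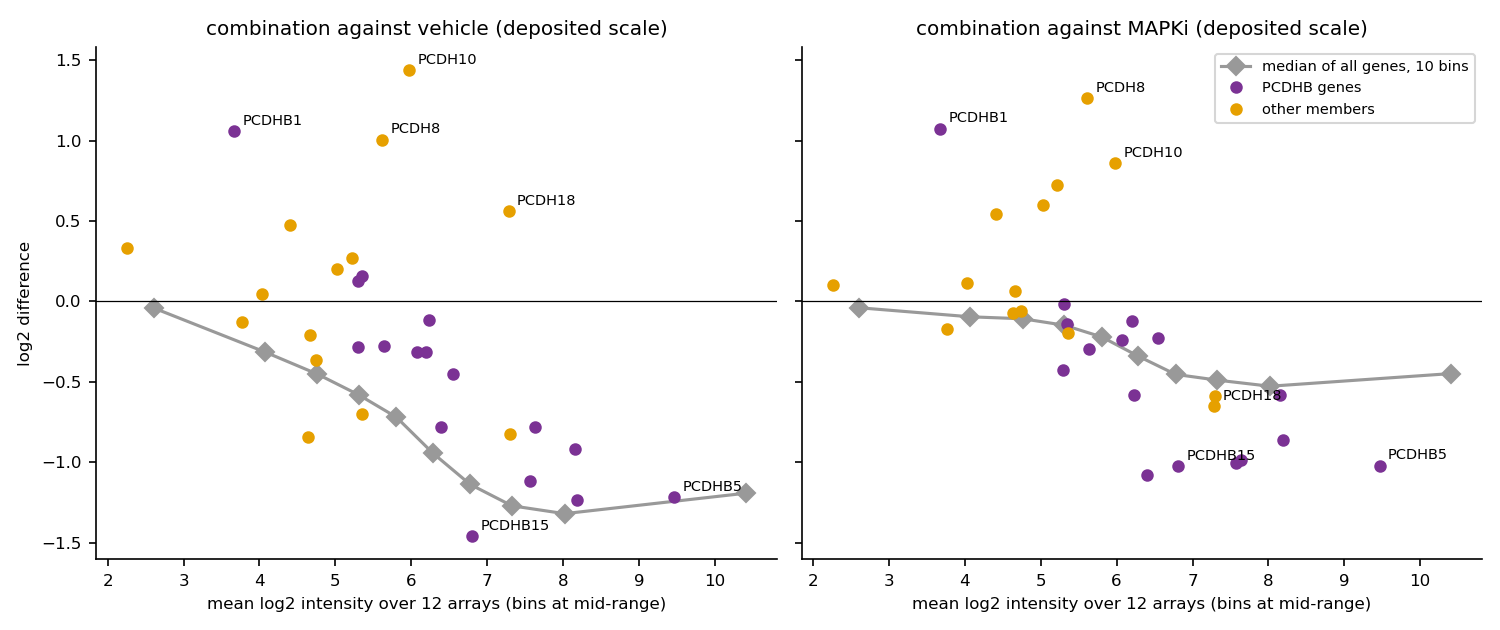
Log2 difference on the deposited scale (vertical axis) against mean log2 intensity over 12 arrays (horizontal axis) for 30 members in the combination against vehicle (left) and against MAPKi (right); the grey line joins the medians of all genes in 10 bins of brightness. On the left PCDHB5 (-1.22) lies close to the line and PCDH10 (1.44) far above it; on the right PCDHB15 (-1.02) and PCDHB5 (-1.02) lie below the line.

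Against HDACi alone, the combination gave 0 members higher, where 0.644% of all genes were higher (limma; 22 members had an unadjusted p under 0.05 in either direction), and 20 lower, where 72.6% were. PCDH12 was the only member lower on both scales (-0.84 ± 0.17, quantile -0.51), where 12.5% of all genes were, and did not pass after median subtraction (-0.37, limma adjusted p = 0.086). After quantile normalization 7 members were higher, where 10.5% of all genes were, among them PCDH8 (0.96), PCDH18 (0.76), PCDHB12 (0.51) and PCDH10 (0.51). PCDH19 (-0.64 ± 0.13) and PCDH17 (-0.84 ± 0.23), which entinostat alone had raised, were lower in the combination than with entinostat alone on the deposited scale, but did not pass after quantile normalization (-0.19 and -0.35). The deposited-scale calls of CDH26, PCDH9 and PCDHB12 in this comparison (-0.25, -0.34 and -0.34) were each lost without single arrays. CDH26 did not pass without any 1 of the vehicle or combination arrays, HDACi array 1 or 2, or MAPKi array 3 (limma adjusted p = 0.051 to 0.14). PCDH9 did not pass without vehicle array 2, MAPKi array 2 or 3, HDACi array 1 or 2, or combination array 2 or 3 (limma adjusted p = 0.051 to 0.20). For PCDHB12 these were HDACi arrays 1 and 2 and combination array 3 (limma adjusted p = 0.056 to 0.077).

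Whether entinostat acted differently with and without MAPKi was tested as an interaction, (combination minus MAPKi) minus (HDACi minus vehicle). It passed for 3 members, all negative, where 4.84% of all genes were negative and 3.16% positive, and 15 members had an unadjusted p under 0.05. On both scales 2 members were negative and 0 positive, against 4.26% and 3.02% of all genes. The count of 3 became 5 without vehicle array 1 or HDACi array 3, and 6 without MAPKi array 3 or combination array 2. PCDH18 had the largest, -1.31 ± 0.14 (limma adjusted p = 2e-05, quantile -1.06). In PCDH18, HDACi arrays (7.36, 7.32 and 7.32) lay above vehicle, but combination arrays (7.21, 7.20 and 7.30) lay below the MAPKi arrays. That fall against MAPKi was -0.65 ± 0.10. It did not pass after quantile normalization (-0.18) but passed after subtraction of array medians (-0.52).

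PCDHB6 had an interaction of -0.97 ± 0.17 (limma adjusted p = 0.0016, quantile -0.80). It read 5.941, 6.313 and 5.886 in vehicle, 6.580, 6.410 and 6.546 with MAPKi, 6.498, 6.304 and 6.514 with HDACi and 5.896, 5.901 and 5.995 with the combination. On the deposited scale each treatment alone was thus mostly higher than vehicle, and the combination lay within the vehicle range (-0.12 ± 0.12). The scaling turned the comparison with vehicle, since after quantile normalization the combination was higher without overlap (0.66, limma adjusted p = 0.0018), and after subtraction of array medians it was higher too (0.45). For PCDH10 the interaction was -0.83 ± 0.22 (limma adjusted p = 0.025). It did not pass after quantile normalization (-0.43), nor without MAPKi array 2, HDACi array 2 or combination array 3 (limma adjusted p = 0.053 to 0.07). PCDH8, CDH26 and PCDH7 had a positive estimate (0.50 ± 0.21, 0.26 ± 0.15 and 0.04 ± 0.15), and none of these 3 passed on the deposited scale. PCDH8 passed after quantile normalization (0.86, limma adjusted p = 0.013). For PCDH17, PCDH19, PCDH9 and PCDHB1 the interaction did not pass, and its 95% intervals were -1.08 to 0.31, -0.63 to 0.14, -0.70 to 0.17 and -0.74 to 0.50.

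All 16 beta genes had a negative interaction estimate on the deposited scale (median -0.48) and 15 of 16 after quantile normalization (median -0.38). Of all 14599 genes, 8287 had a negative estimate on the deposited scale and 7266 after quantile normalization. Among the beta genes only PCDHB6 passed on these scales. The count depended on the settings: after subtraction of array medians PCDHB3 (-0.45) and PCDHB16 (-0.50) passed as well, and the 3 negative calls over all members became 8 with trend and robust variance and 9 without the dimmest 40% of genes. After quantile normalization 1 member was positive and 2 were negative, against 6.17% and 6.36% of all genes. The median over all genes was -0.05 (quantile 0.0019).

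Other genes of cadherin adhesion were counted from lists that were chosen with earlier results of these arrays known. For reading the counts, 2.97% of all genes rose and 66.2% fell with MAPKi, 10.4% and 37.2% with HDACi and 4.38% and 74.3% with the combination. After quantile normalization these shares were 14.2% and 14.7%, 18.2% and 21.4%, and 21.0% and 25.6%. Of 12 catenins and linkers 4 were measured, of which 4 fell with MAPKi (quantile 3) and 2 rose with HDACi (quantile 2). JUP, which encodes plakoglobin, and VCL, which encodes the actin linker vinculin, fell with MAPKi (-1.75 ± 0.12 and -1.50 ± 0.10, quantile -0.98 and -0.74) and rose with HDACi (0.59 and 0.77, quantile 0.96 and 1.16). Among 7 desmosomal cadherins 3 rose with HDACi (quantile 3) and 3 fell with MAPKi (quantile 1), with DSC3 (2.03 ± 0.13 with HDACi, quantile 2.00) and DSG2 (-1.57 ± 0.10 with MAPKi, quantile -0.77) largest. Of the 8 measured FAT, dachsous and calsyntenin genes, 3 rose and 4 fell with MAPKi and 3 rose and 2 fell with HDACi. After quantile normalization 5 were higher and 2 lower with MAPKi, and 5 higher and 1 lower with HDACi, so the balance with MAPKi turned with the scaling. FAT4, a giant atypical cadherin, rose with MAPKi, HDACi and the combination (1.15, 0.76 and 1.19, quantile 1.58, 0.84 and 2.07), and CLSTN2 rose most with HDACi (1.53 ± 0.10, quantile 1.88).

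Transcription factors that repress or accompany loss of cadherins in epithelial-mesenchymal transition were all measured. Of these 8, 1 rose and 6 fell with MAPKi, and 2 rose and 4 fell with HDACi. After quantile normalization 2 were higher and 3 lower with each. ZEB2 rose with MAPKi (0.52 ± 0.10, quantile 1.25) and fell with HDACi (-1.30 ± 0.10, quantile -0.95), SNAI1 went the other way (-1.18 and 0.70, quantile -0.38 and 1.08), and ZEB1 fell most with MAPKi (-1.68 ± 0.11, quantile -0.91). A list of CTCF, cohesin and other regulators of the clusters had 12 measured genes, of which 12 fell with MAPKi, 11 with HDACi and 11 with the combination, and after quantile normalization 5, 9 and 11 were lower. The 1 gene of this list that rose with HDACi, on both scales, was DNMT3B, a DNA methyltransferase (0.51 ± 0.13, quantile 0.61). With the combination REST, a repressor of neuronal genes, fell by 2.34 ± 0.11 (quantile -1.10), the cohesin subunit gene STAG2 by 2.32 ± 0.10 (quantile -1.12), SMCHD1 by 2.04 ± 0.10 (quantile -0.77) and CTCF itself by 1.58 ± 0.11 (quantile -0.40). Of 8 measured genes of cadherin maturation and shedding, 7 fell with MAPKi, 4 with HDACi and 8 with the combination, after which the quantile counts of lower genes were 1, 3 and 3. In the smaller lists, of 6 cadherin-related genes 5 fell with MAPKi and 1 after quantile normalization, and of 4 genes of the WAVE complex, which protocadherin tails recruit, 3 fell and 1 after quantile normalization. Whether any of these genes acts on the protocadherins was not tested.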

How the data were processed

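The deposited table holds linear intensities, which the authors made with RMA in Transcriptome Analysis Console per the submitters' processing notes; the sources used here name no version, array annotation or genome build. Per the labels' protocols an ERCC spike-in mix went into the Trizol, and how arrays were scaled is not stated. Of 29592 rows 14783 had 1 gene symbol. Symbols were updated with RefSeq, and the brightest row stood for each of 14599 genes. Log2 intensities of all 12 arrays were fitted with limma 3.58.1 in R 4.3.3 (a mean per group, 8 residual degrees of freedom) in 6 comparisons, with Benjamini-Hochberg adjustment over all genes and a threshold of 0.05. Having 3 arrays per group limits precision. The quantile normalization covered all rows. On simulated data of MAPKi against vehicle (14599 genes), 38% of the genes given a log2 change of 0.5 passed and 100% of those given 1. Few genes were changed in the simulation, whereas 2.97% of all genes rose and 66.2% fell with MAPKi in the data. The simulated shares thus do not give the power of the real comparison. Members, lists and the rule for names were chosen with earlier results of these data known. The rule named CDH1, CDH2, CDH3, CDH4, CDH11, CDH13, CDH19, PCDH1, PCDH7, PCDH9 and PCDH10 where measured, the 10 brightest members, up to 6 rises and 6 falls per comparison without overlap, and up to 4 passing genes per list. Other members are named only to complete a count. The Y-linked member is counted without its values. Alternatives were quantile normalization, array median subtraction, no dim genes, trend and robust variance, other row rules, only the arrays compared, a replicate block, and leaving out each array. Figures used matplotlib 3.10.9 in Python 3.11.15.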

Additional observations from a re-analysis of the deposited data

Results flagged for a closer look

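For 3 members the effect of entinostat differed with and without MAPKi by the interaction test in limma, as log2 differences on the deposited scale. PCDH18 had -1.31, PCDHB6 -0.97 and PCDH10 -0.83. PCDH18 and PCDHB6 also passed after quantile normalization (-1.06 and -0.80), and PCDH10 did not (-0.43). Single outlying arrays were not looked for, since groups had 3 arrays.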

How the results depend on the processing

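Scaling of the arrays mattered most. After quantile normalization the counts of members were 14 higher and 1 lower (MAPKi), 4 lower (HDACi), 18 higher and 2 lower (combination against vehicle), 6 lower (combination against MAPKi), 7 higher and 1 lower (combination against HDACi) and 1 higher (interaction). With the replicate number as a block as well, 16 members were higher in the combination against vehicle and the other counts named here were the same. Subtracting array medians gave 12 higher and 0 lower (MAPKi), 16 and 6 (combination against vehicle) and 3 and 3 (combination against HDACi). Of all 14599 genes, 2586 were higher and 4263 lower on that scale with MAPKi. The combination gave 3301 and 6341 against vehicle, and 1787 and 4427 against HDACi. Without the dimmest 40% of genes 4 members were lower with MAPKi, 6 higher with HDACi, 3 higher with the combination, 2 higher in the combination against MAPKi, 12 lower against HDACi and 9 lower in the interaction. Trend and robust variance gave 8 lower in the interaction. The cause was not tested, except that the dim filter leaves 16 members. Shares of all genes were not counted for the dim filter, for the replicate block or for trend and robust variance.

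The Y-linked member aside, the following members changed sign between the deposited and the other scale and passed on at least 1 of the 2, and sign changes that passed on neither are not given. The differences after quantile normalization follow. A replicate block, run for the members that the rule names, gave the same values, and PCDHB7 did not pass with it. With MAPKi they were PCDH1 0.50, PCDH7 0.021, PCDHB3 0.35, PCDHB5 0.55, PCDHB10 0.47, PCDHB11 0.66, PCDHB14 0.45, PCDHB15 0.28 and CDH23 0.0015. In the combination against vehicle they were PCDH1 0.35, CDH23 0.034, PCDHB2 0.52, PCDHB3 0.49, PCDHB6 0.66, PCDHB7 0.42, PCDHB10 0.37, PCDHB11 0.11, PCDHB12 0.45, PCDHB13 0.090, PCDHB14 0.066 and PCDHB16 0.32. Against HDACi they were PCDH1 0.38, PCDH9 0.022, PCDH10 0.51, PCDH18 0.76, CDH26 0.19, PCDHB2 0.22, PCDHB3 0.011, PCDHB5 0.25, PCDHB6 0.14, PCDHB10 0.16, PCDHB11 0.20, PCDHB12 0.51, PCDHB13 0.47, PCDHB14 0.19, PCDHB15 0.023 and PCDHB16 0.0061. After median subtraction they were, with MAPKi, CDH23 0.13, PCDH7 0.16, PCDH19 0.042, PCDHB5 0.24, PCDHB10 0.099, PCDHB11 0.32, PCDHB14 0.063 and PCDHB15 0.0041, with the combination CDH23 0.20, PCDH7 0.36, PCDH15 0.44, PCDHB2 0.26, PCDHB3 0.12, PCDHB6 0.45 and PCDHB16 0.29, and against HDACi PCDH1 0.035, PCDH9 0.13, PCDH11X 0.46, PCDH18 0.38, PCDHB2 0.024, PCDHB12 0.13, CDH23 0.023 and CDH26 0.22.

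Leaving out 1 array at a time gave, higher and lower, 4 to 6 and 4 to 11 (MAPKi), 7 to 13 and 7 to 8 (HDACi), 6 to 8 and 12 to 15 (combination against vehicle), 5 to 6 and 10 to 12 (against MAPKi), 0 to 0 and 15 to 20 (against HDACi) and 0 to 0 and 2 to 6 (interaction). Shares of all genes were not counted with single arrays left out. The replicate block left 135 of the named values on their side of the threshold, 1 lost its call and 2 gained one. Same-numbered arrays had a median r of 0.0324 across genes after group means were removed (lowest -0.106), against -0.0111 for other pairs, and 9 of 12 correlated best with their own number, which is a hint from the data and not the design. A planned scaling by spike-in signal was not run, because no row could be recognised as a spike-in. With 3 arrays per group and no detection call, differences of dim members are the least certain.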
